A study of Mus musculus with 15 samples.

Results

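The flavin-containing monooxygenase (FMO) genes Fmo1, Fmo2, Fmo4 and Fmo5 were taken from the raw count table by their gene symbols. The family was chosen with earlier results of these data known. These 4 genes, of 26264 in the table, had enough reads to be tested among 13189 genes. RNA from mouse liver was sequenced in 15 libraries, 3 in each of 5 groups. The SD-NS group was the reference for the diet, and the HFD-NS group received the high-fat diet that induces MASLD (metabolic dysfunction-associated steatotic liver disease) in these mice, with no named agent. HFD-Res mice received the same diet and resmetirom, an agonist of the thyroid hormone receptor beta. HFD-337 mice received the diet and the Stk25 knockdown agent Gc337. HFD-338 mice received the diet too, and what else they were given is not described beyond the group's name. The meanings of SD and NS, the strain, sex and age of the mice, and the dose and length of treatment were not given in the sources used here. Nor do the labels state that the libraries of a group came from separate animals. The p-values set a group difference against the spread between these libraries, which may not be that between animals.

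FMOs are enzymes of the endoplasmic reticulum membrane that bind FAD, take electrons from NADPH and use molecular oxygen to oxidise nitrogen and sulfur atoms of drugs, dietary amines and thiols. Unlike cytochrome P450 enzymes, they do not need a separate reductase. Fmo1 and Fmo5 are the main forms of the adult mouse liver. Fmo1 acts on many drugs and also converts hypotaurine to taurine, Fmo5 inserts oxygen into ketones and has been tied to body weight and plasma lipids, Fmo2 is best known from lung, and Fmo4 is a minor form.

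In build mm39, Fmo4 (chr1:162621452-162640118), Fmo1 (chr1:162657130-162694179) and Fmo2 (chr1:162701886-162726327) follow each other on the minus strand within 104.876 kb, and Fmo5 lies apart on the plus strand of another chromosome (chr3:97536120-97562603). The exons of the 4 genes overlapped 0 other genes, so the unstranded counts of these genes held no reads shared with a neighbour. To show how alike the messages are, part of the coding sequence of Fmo2, Fmo4 (both from base 1) and Fmo5 (from base 4) is given from the GENCODE vM21 transcripts (GRCm38), 5′ to 3′, over the 90 bases around the glycine-rich FAD-binding stretch. Capitals mark the 3 GGN (glycine) codons of the pattern GGNNNNGGNNNNNNNGGN, searched in frame on the coding strand.

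Fmo2: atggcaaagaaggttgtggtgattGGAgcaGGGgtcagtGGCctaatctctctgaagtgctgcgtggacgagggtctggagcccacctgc
Fmo4: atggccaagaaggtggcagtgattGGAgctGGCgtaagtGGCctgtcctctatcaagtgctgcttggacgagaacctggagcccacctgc
Fmo5: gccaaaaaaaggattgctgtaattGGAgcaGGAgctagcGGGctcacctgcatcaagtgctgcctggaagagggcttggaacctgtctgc

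The pattern was present in the first 93 coding bases of 3.91% of 21607 protein-coding genes, and of the 3 genes shown. Over their whole coding sequences, of 1602 to 1683 bases, identity between pairs ran from 61.1% for Fmo4 and Fmo5 to 63.0% for Fmo2 and Fmo4. A search for identical stretches of 50 bases found 0 shared between a member's transcripts and those of the 6 other Fmo genes in that annotation. Stretches that differ at any base would not be found by this search, and their effect on the counts was not tested.

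Library totals ran from 3873903 to 9797743 counts. Values of 1 gene across libraries are CPM (counts scaled to library size with TMM factors), and levels between genes are TPM, which also divide by exon length. The targeted gene Stk25 stood at 46.5 ± 2.53 CPM (SD, n = 3) in HFD-NS, 42.0 ± 4.62 in HFD-Res, 21.5 ± 0.811 in HFD-338 and 17.5 ± 2.51 in HFD-337. It was lower in both HFD-337 and HFD-338 than in HFD-NS (log2 differences -1.40 and -1.11, edgeR adjusted p = 3.8e-08 and 6.41e-07). The 9 hepatocyte markers in the table, such as Alb, together gave 79176 to 152006 CPM in each library. The 5-group comparisons share samples (4 of the 10 use HFD-NS), so they are not independent of each other. In bulk tissue, fewer cells of a type and less RNA per cell cannot be told apart.

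**Figure D1:**
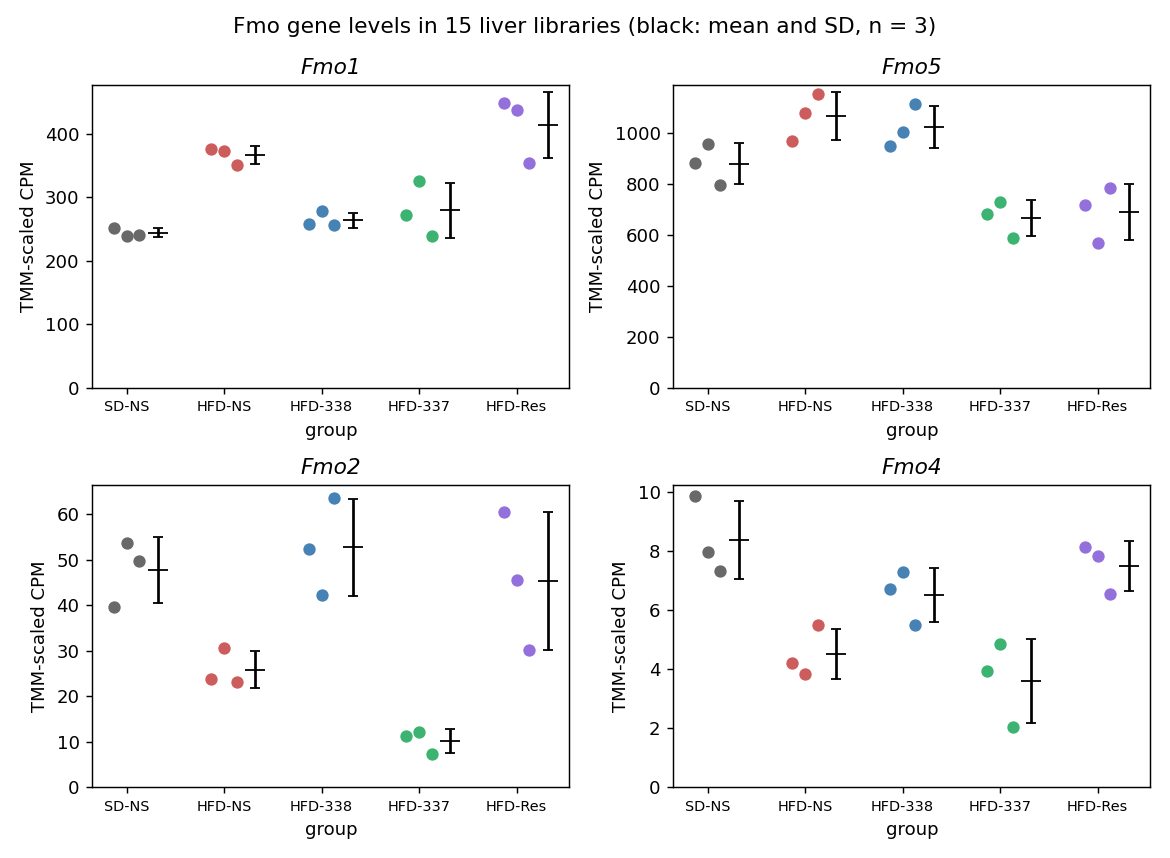
Each panel plots 1 gene, with TMM-scaled CPM on a linear vertical axis from 0 and the 5 groups on the horizontal axis; points are libraries and black bars the mean and SD (n = 3). Fmo1 was highest in HFD-NS and HFD-Res, Fmo5 lowest in HFD-337 and HFD-Res, and Fmo2 stood at 7.31 to 12.2 CPM in HFD-337, under every other library.

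Fmo1 was high in livers of the high-fat diet and of resmetirom, and close to the SD-NS level in HFD-337 and HFD-338. SD-NS libraries held 252, 239.7 and 240.2 CPM and HFD-NS libraries 377, 373 and 351 CPM. HFD-Res libraries held 449, 438 and 354 CPM. HFD-338 libraries held 258, 278 and 257 CPM, and HFD-337 libraries 273, 326 and 239 CPM. No library of SD-NS, HFD-338 or HFD-337 reached the lowest HFD-NS library.

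Fmo1 rose with the diet, from 244 ± 7.12 to 367 ± 14.1 CPM, or 150.4% of the SD-NS mean (log2 difference 0.59 ± 0.112 SE, edgeR adjusted p = 0.000771). It fell in HFD-337 to 279 ± 44.0 CPM, 76.1% of HFD-NS (-0.39 ± 0.112 SE, edgeR adjusted p = 0.00737). In HFD-338 it fell to 264 ± 11.8 CPM, 72.0% of HFD-NS (-0.47 ± 0.112 SE, edgeR adjusted p = 0.00267), although on the log2(TPM + 1) scale the call was lost with limma (adjusted p = 0.061). The HFD-Res mean of 414 ± 52.2 CPM did not pass the test against HFD-NS (0.17, 95% interval -0.05 to 0.39, edgeR adjusted p = 0.363). Against HFD-Res, Fmo1 was lower in both HFD-337 (-0.56, edgeR adjusted p = 0.000415) and HFD-338 (-0.65, edgeR adjusted p = 0.000165). In order of level, then, HFD-Res and HFD-NS were neighbours that did not pass the test, and so were HFD-337, HFD-338 and SD-NS (edgeR adjusted p = 0.547 for HFD-337 against HFD-338 and 0.421 for HFD-338 against SD-NS). HFD-337 against SD-NS also missed the threshold (0.20, edgeR adjusted p = 0.147), but passed it without HFD-337 replicate 27, the lowest library of that group for all 4 members (edgeR adjusted p = 0.0264).

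Fmo5, the most abundant member, stood high in HFD-NS and HFD-338 and low in HFD-337 and HFD-Res. SD-NS libraries held 884, 959 and 798 CPM. HFD-NS libraries held 970.1, 1080.5 and 1154 CPM, and HFD-338 libraries 952, 1005 and 1114 CPM. HFD-337 libraries held 682, 729 and 589 CPM, and HFD-Res libraries 719.6, 570.2 and 785 CPM. All 6 libraries of the last pair of groups lay under all 9 of the other groups.

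Against HFD-NS (1068 ± 92.7 CPM), Fmo5 fell to 667 ± 71.6 CPM in HFD-337, 62.4% of the mean (log2 difference -0.68 ± 0.126 SE, edgeR adjusted p = 0.000225). In HFD-Res it fell to 692 ± 110.0 CPM, 64.7% of the mean (-0.63 ± 0.126 SE, edgeR adjusted p = 0.00196). HFD-337 and HFD-Res did not differ by the test (-0.05, 95% interval -0.30 to 0.19, edgeR adjusted p = 0.754). HFD-338, at 1024 ± 82.7 CPM, did not differ from HFD-NS by the test (-0.06, 95% interval -0.31 to 0.18, edgeR adjusted p = 0.733), and HFD-337 was lower than HFD-338 (-0.62, edgeR adjusted p = 0.000397). HFD-338 was in turn higher than HFD-Res (0.57, edgeR adjusted p = 0.00142). The diet gave a difference of 0.28 that missed the threshold (880.2 ± 80.5 CPM in SD-NS, edgeR adjusted p = 0.105). It passed with limma-voom (adjusted p = 0.0413), with limma on log2(TPM + 1) (adjusted p = 0.0295) and when the fit held no other group (edgeR adjusted p = 0.026). Below the SD-NS level, HFD-337 passed the test (-0.40, edgeR adjusted p = 0.0113), but not without SD-NS replicate 7 (edgeR adjusted p = 0.058) or HFD-337 replicate 27 (edgeR adjusted p = 0.077). The call for HFD-Res against SD-NS (-0.35, edgeR adjusted p = 0.0471) was lost without SD-NS replicate 6 (0.102), SD-NS replicate 7 (0.183), HFD-Res replicate 29 (0.0768) or HFD-Res replicate 30 (0.219).

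Fmo2 covered the widest range of the 4 genes. Counts per library ran from 36 to 486, against 854 or more for Fmo1. SD-NS libraries held 39.5, 53.7 and 49.8 CPM and HFD-NS libraries 23.7, 30.5 and 23.2 CPM. HFD-338 libraries held 52.2, 42.3 and 63.6 CPM, and HFD-Res libraries 60.4, 45.5 and 30.1 CPM. HFD-337 libraries held 11.2, 12.2 and 7.31 CPM. Every HFD-337 library was under every other library, and every HFD-338 library was above every HFD-NS library.

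With the diet, Fmo2 fell from 47.7 ± 7.30 to 25.8 ± 4.10 CPM (log2 difference -0.88 ± 0.241 SE, edgeR adjusted p = 0.0154). This call was lost without the filter on low counts (0.0527) and without SD-NS replicate 7 (0.0668), HFD-NS replicate 12 (0.0521) or HFD-NS replicate 16 (0.0605), each an edgeR adjusted p. HFD-337 and HFD-338 differed from HFD-NS in opposite directions. In HFD-337 it fell to 10.2 ± 2.60 CPM, 39.7% of HFD-NS (-1.30 ± 0.271 SE, edgeR adjusted p = 0.00142), and in HFD-338 it rose to 52.7 ± 10.7 CPM, 204% of HFD-NS (1.03 ± 0.235 SE, edgeR adjusted p = 0.00375). Tested directly, the HFD-337 mean was 19.4% of the HFD-338 mean (-2.33 ± 0.266 SE, edgeR adjusted p = 7.66e-06). It was also 21.5% of the SD-NS mean (-2.18, edgeR adjusted p = 1.27e-05) and 22.6% of the HFD-Res mean (-2.10, edgeR adjusted p = 2.79e-05). These 5 differences of HFD-337 or HFD-338 passed in all 12 alternative fits of each comparison.

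HFD-Res, at 45.3 ± 15.2 CPM, was above HFD-NS with overlapping libraries (0.80 ± 0.241 SE, edgeR adjusted p = 0.0442). Without HFD-NS replicate 12 or 16, or HFD-Res replicate 29 or 30, the edgeR adjusted p was 0.127, 0.139, 0.161 and 0.106 in that order. HFD-338, SD-NS and HFD-Res, the 3 highest groups, did not differ by the tests between neighbours (edgeR adjusted p = 0.617 for HFD-338 against SD-NS and 0.854 for HFD-Res against SD-NS).

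Fmo4 was the scarcest member, with 10 to 74 counts per library, so its differences are the least precise. SD-NS libraries held 9.85, 7.97 and 7.31 CPM, HFD-NS libraries 4.20, 3.85 and 5.48 CPM, and HFD-Res libraries 8.14, 7.82 and 6.54 CPM. HFD-338 libraries held 6.73, 7.30 and 5.50 CPM and HFD-337 libraries 3.94, 4.84 and 2.03 CPM. The order of the groups was that of SD-NS, HFD-Res, HFD-338, HFD-NS and HFD-337, from 8.38 ± 1.32 to 3.60 ± 1.44 CPM, and no neighbours in it passed the test.

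The diet lowered Fmo4 to 53.8% of the SD-NS mean (log2 difference -0.91 ± 0.245 SE, edgeR adjusted p = 0.00984), a call lost without SD-NS replicate 6 (edgeR adjusted p = 0.0688). None of the 3 treated groups passed the test against HFD-NS. The difference was -0.27 in HFD-337 (95% interval -0.80 to 0.25, edgeR adjusted p = 0.419), 0.52 in HFD-338 (0.05 to 0.99, edgeR adjusted p = 0.0978) and 0.71 in HFD-Res (0.22 to 1.20, edgeR adjusted p = 0.0688). HFD-337 was however lower than HFD-338 (-0.80, edgeR adjusted p = 0.013), HFD-Res (-0.99, edgeR adjusted p = 0.00504) and SD-NS (-1.18, edgeR adjusted p = 0.000832). The first of these was lost without HFD-337 replicate 27 (edgeR adjusted p = 0.0573).

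**Figure D2:**
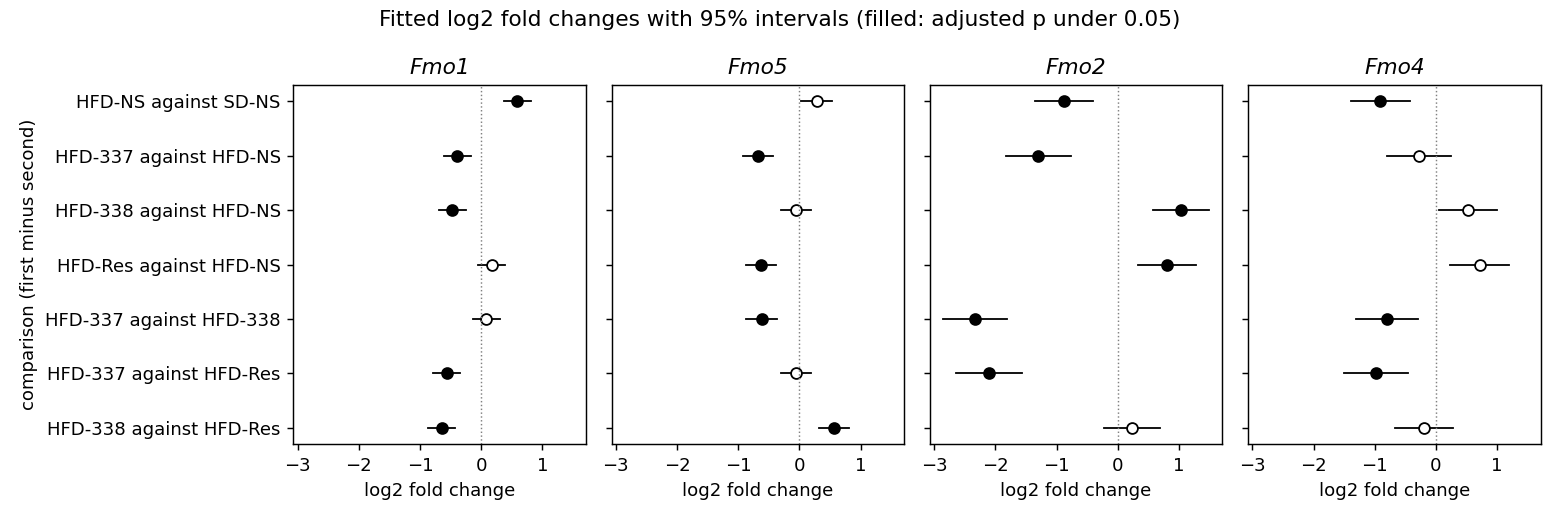
Fitted log2 differences (horizontal axis, first group minus second) of the 4 genes in 7 comparisons (rows), with bars of 1.96 SE to each side; filled points passed an edgeR adjusted p of 0.05. The Fmo2 difference lay at -1.30 for HFD-337 and 1.03 for HFD-338, both against HFD-NS, while Fmo1 was lower in both and Fmo5 in HFD-337 alone of the 2.

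Of the other Fmo genes, Fmo6 had 1 count over the 15 libraries and Fmo9 had 0.

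Set side by side, the diet moved 3 of the 4 members, where 28.1% of all genes tested were called. Fmo1 was higher (12% of all genes were) and Fmo2 and Fmo4 were lower (16.1%). HFD-337 had 3 of 4 lower than HFD-NS and none higher, beside 47.2% of all genes called, 22.8% lower and 24.4% higher. HFD-338 had 1 member higher and 1 lower than HFD-NS, beside 36.8% of all genes called, 18.9% higher and 17.9% lower. HFD-Res likewise had 1 higher and 1 lower, beside 13% called, 6.22% higher and 6.74% lower. Between the treated groups, HFD-337 had 3 members lower than HFD-338, beside 58.4% of all genes called (29.6% lower, 28.8% higher), and 3 lower than HFD-Res, beside 47.6% called (23.3% lower, 24.3% higher). HFD-338 had Fmo5 higher and Fmo1 lower than HFD-Res, beside 43.1% called (22.2% higher, 20.9% lower). Against SD-NS, 3 members were lower in HFD-337, beside 55.2% called (27.1% lower, 28.1% higher). None passed in HFD-338, beside 48.7% called (25.7% lower, 23.0% higher), and in HFD-Res Fmo1 was higher and Fmo5 lower, beside 26.9% called (11.5% higher, 15.4% lower). At an unadjusted p under 0.05, HFD-338 against SD-NS also gave 0 of the 4 with edgeR, while limma on log2(TPM + 1) called Fmo1 (adjusted p = 0.036) and Fmo5 (adjusted p = 0.00591). On that scale 73.4% of all calls in this comparison were higher, against 47.1% with edgeR, and the median of all genes was 0.18, against -0.04. In all, 23 of 40 tests of a member passed. These counts lie near or above the shares of all genes in several comparisons, and the family as a whole was not tested against other genes.

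In TPM, the 4 genes together gave 446 ± 15.8 in SD-NS, 605 ± 36.0 in HFD-NS, 599 ± 38.2 in HFD-338, 508 ± 27.4 in HFD-Res and 366 ± 56.2 in HFD-337. The 3 HFD-337 libraries, at 302 to 399 TPM, were under all others on this scale, which carries no TMM factors. With limma on log2(TPM + 1), the median difference of all genes was -0.23 in HFD-337 against HFD-338, against 0.00 with edgeR. In HFD-338 against SD-NS it was 0.18, against -0.04. The sum was not compared on the CPM scale, and the part of this shift in it was not tested. Fmo5 made up most of the sum in 4 groups, with 64.8% ± 1.95 in SD-NS, 62.8% ± 2.74 in HFD-NS, 66.8% ± 1.69 in HFD-338 and 58.8% ± 1.57 in HFD-337. In HFD-Res its share was 48.3% ± 6.90, and Fmo1 stood at 46.1% ± 5.84, against 27.6% to 39.1% in the other groups. HFD-Res replicate 30 was the library in which Fmo1 took the larger part, with 51.7% against 42.2% for Fmo5. Fmo2 took 4.49% ± 0.706 in SD-NS, 1.94% ± 0.293 in HFD-NS, 4.38% ± 0.754 in HFD-338, 4.01% ± 1.17 in HFD-Res and 1.14% ± 0.168 in HFD-337. Fmo4 took 0.812% to 1.89% as group means. Shares were not tested.

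**Figure D3:**
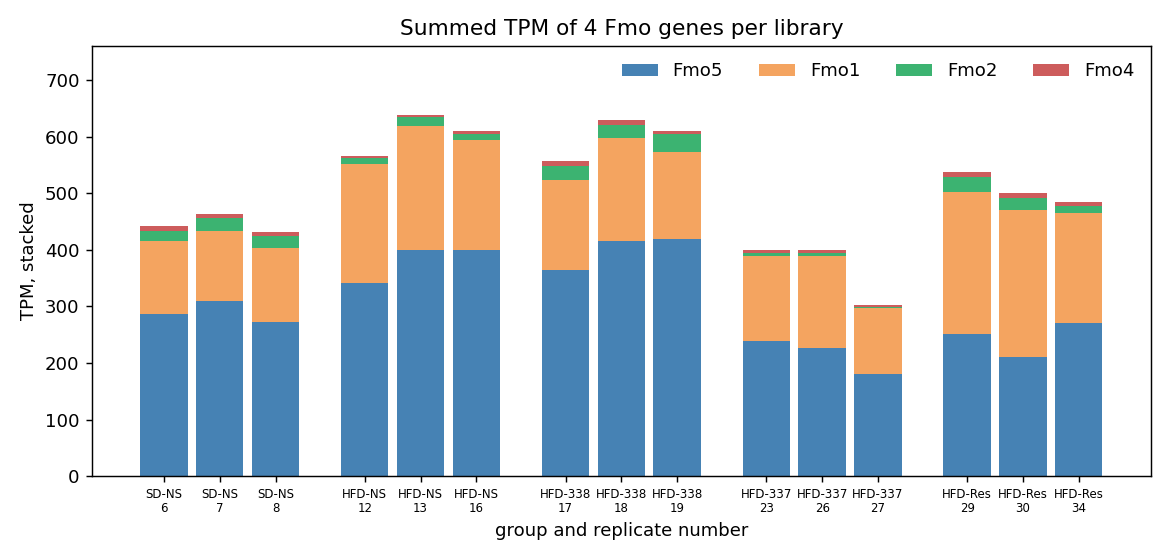
Stacked bars give the TPM of Fmo5, Fmo1, Fmo2 and Fmo4 in each of the 15 libraries, on a linear axis from 0, ordered by group and replicate number. The HFD-337 bars are the shortest on this scale, which carries no TMM factors, at 302 to 399 TPM. In the HFD-Res bars the Fmo1 part is close to or above the Fmo5 part in replicates 29 and 30.

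Markers of other liver cell types moved between the same groups, and Fmo2 moved with some of them. The 8 stellate cell and fibroblast markers summed to 298 to 326 CPM in SD-NS, 313 to 414 in HFD-NS, 360 to 424 in HFD-Res, 757 to 1294 in HFD-338 and 120.1 to 261 in HFD-337. Against HFD-NS, 4 of 8 were higher and 0 lower in HFD-338, such as Col3a1 (log2 difference 2.61) and Col1a1 (2.56), and 0 were higher and 4 lower in HFD-337, such as Hgf (-2.32) and Reln (-1.42). For HFD-Res 0 of 8 passed, but only 13% of all genes were called there, so 0 of 8 says little about this list. The Fmo2 means of HFD-Res and HFD-338 were 45.3 and 52.7 CPM. The Fmo2 call for HFD-Res against HFD-NS held in 2 of 6 fits with 1 library left out. Between HFD-NS and SD-NS, the list was no lower with the diet and Fmo2 was lower. The 8 sinusoidal endothelial markers summed to 233 to 277 CPM in HFD-NS, 84.7 to 106.5 in HFD-337 (8 of 8 lower, such as Lyve1 at -2.53 and Pecam1 at -2.08) and 103 to 187 in HFD-338 (6 of 8 lower), where Fmo2 was high. The 7 bile duct markers summed to 60.5 to 75.2 CPM in HFD-NS and 597 to 755 in HFD-338 (7 of 7 higher, such as Epcam at 4.44), and 85.6 to 263 in HFD-337. The 7 macrophage markers summed to 85.3 to 117 CPM in HFD-NS, 90.8 to 278 in HFD-338 and 33.8 to 72.5 in HFD-337. In HFD-337 only Adgre1 (-1.02) and Csf1r (-1.38) passed, both lower than in HFD-NS. In HFD-338 only Adgre1 (1.40) and Cd68 (1.12) passed, both higher. Beside the counts of these 4 lists, 47.2% of all genes were called in HFD-337 against HFD-NS (24.4% higher, 22.8% lower). In HFD-338 against HFD-NS, 36.8% were called (18.9% higher, 17.9% lower). In these 4 lists 0 markers were at 0 in any group. Their part in the Fmo2 result was not tested.

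**Figure D4:**
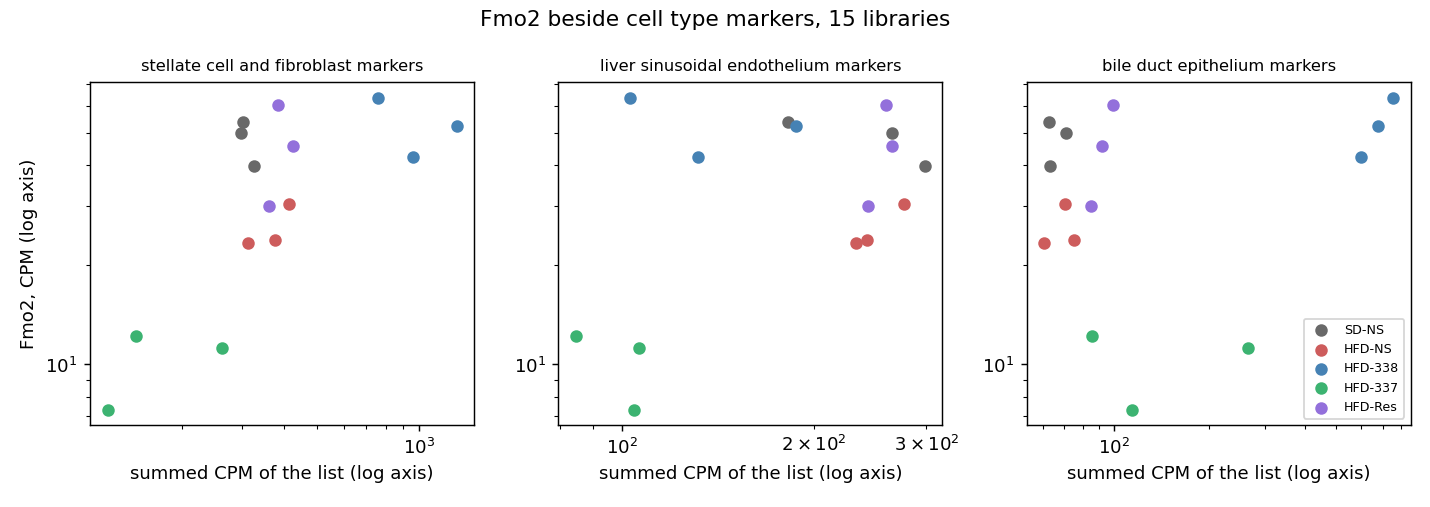
Fmo2 CPM (vertical, log axis) against the summed CPM of stellate cell and fibroblast, sinusoidal endothelial and bile duct markers (horizontal, log axes), with 1 point per library coloured by group. The HFD-337 libraries, at 7.31 to 12.2 CPM of Fmo2, are low for both stellate and endothelial markers, and the HFD-338 libraries, at 42.3 to 63.6 CPM, are high for stellate and bile duct markers but not for endothelial ones.

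Hepatocyte lists differed between the groups too. Of 9 general hepatocyte markers, 2 were higher and 2 lower in HFD-337 than in HFD-NS, 0 and 1 in HFD-338, and 1 and 3 in HFD-Res. In HFD-Res their sum of 79176 to 87076.5 CPM lay under that of HFD-NS, 108463 to 122656 CPM. Of 10 periportal markers, 0 were higher in any treated group than in HFD-NS, while 5 were lower in HFD-Res, 5 in HFD-338 and 3 in HFD-337. Beside these counts, 6.22% of all genes were higher and 6.74% lower in HFD-Res, 18.9% and 17.9% in HFD-338, and 24.4% and 22.8% in HFD-337. Pericentral markers summed to 16564 to 18663 CPM in HFD-NS, against 11687 to 12722 in SD-NS, 8813 to 12234 in HFD-338, 9344 to 14126 in HFD-337 and 8841 to 10664 in HFD-Res. Fmo1 was high in HFD-NS, where the sum of this list was high, and in HFD-Res, where the sum was low. The part of this list in the Fmo1 result was not tested. Male-biased liver genes, a list kept because liver FMO forms are known to differ between the sexes, summed to 10168 to 15358 CPM in SD-NS, 2916 to 9513 in HFD-NS, 19309 to 36993 in HFD-338, 8945 to 26522 in HFD-337 and 1150 to 1692 in HFD-Res. Of its 10 genes, 0 were higher and 4 lower in HFD-Res than in HFD-NS, such as Cyp2d9 (-3.42), while 2 were higher and 2 lower in HFD-338, and 2 were higher and 0 lower in HFD-337. Female-biased genes summed to 5358 to 5690 CPM in SD-NS, 2033 to 2735 in HFD-NS, 1261 to 1291 in HFD-338, 719 to 1138 in HFD-337 and 2680.03 to 3531 in HFD-Res. Of these 10 genes, 5 were higher and 0 lower in HFD-Res, such as Sult2a1 (8.48), 0 were higher and 5 lower in HFD-337, and 1 was higher and 6 lower in HFD-338. Counts of these close gene families are uncertain, and their part in the Fmo results was not tested. Ddx3y, a gene of the Y chromosome, had group means of 120 to 168 CPM. Xist, which is expressed in female cells, had 0.154 to 0.487 CPM. This is the pattern of male tissue in all 5 groups, although the sex was not given.

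Genes that supply the FMO cofactors were followed next. Of 4 tested genes of FAD and riboflavin supply, Flad1, the FAD synthase, was higher in HFD-337 (log2 difference 0.87) and HFD-Res (0.50) and lower in HFD-338 (-0.39). Rfk, the riboflavin kinase, was higher in HFD-Res (0.69) and lower in HFD-338 (-0.50). Slc25a32, a mitochondrial FAD and folate carrier, was lower in HFD-337 (-1.11), and Slc52a2, a riboflavin transporter, was higher in HFD-338 (0.53). The list median was 0.11 in HFD-337 (all genes tested, 0.03), -0.34 in HFD-338 (0.00) and 0.51 in HFD-Res (0.01).

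Among 9 genes of NADPH supply, 0 were higher and 4 lower in HFD-337 (median -0.40), 2 and 3 in HFD-338 (median -0.27), and 2 and 4 in HFD-Res (median -0.34). Among all genes, 24.4% were higher and 22.8% lower in HFD-337, 18.9% and 17.9% in HFD-338, and 6.22% and 6.74% in HFD-Res. In HFD-337 and HFD-Res the gene of malic enzyme, Me1, differed most, with 109 CPM in HFD-NS, 27.1 in HFD-337 (-1.99, edgeR adjusted p = 3.47e-07), 61.6 in HFD-338 (-0.82, edgeR adjusted p = 0.00111) and 380.4 in HFD-Res (1.80, edgeR adjusted p = 1.86e-06). Pgd and G6pdx of the pentose phosphate pathway were higher in HFD-338 (0.89 and 0.94), and mitochondrial Idh2 was lower in HFD-337 (-0.76) and HFD-Res (-1.08). Of 7 genes of electron transfer at the microsomal membrane (Por, Cyb5a, Cyb5r1, Cyb5r3) or the outer mitochondrial membrane (Cyb5b, Mtarc1, Mtarc2), 2 were higher and 2 lower in HFD-337 (median 0.15), 1 and 4 in HFD-338 (median -0.38), and 1 and 3 in HFD-Res (median -0.26). Por, the reductase that serves cytochrome P450 enzymes and not FMOs, was lower in HFD-337 (-0.96) and HFD-338 (-0.89). Cyb5r1, a cytochrome b5 reductase, was higher in HFD-Res (0.98), HFD-338 (1.03) and HFD-337 (1.20).

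Pathways around known FMO substrates came next. Of 11 genes of choline, betaine and methylamine metabolism, 0 were higher and 7 lower in HFD-337 (median -0.72), 0 and 6 in HFD-338 (median -0.45), and 1 and 5 in HFD-Res (median -0.44). All genes tested gave 24.4% higher and 22.8% lower in HFD-337, 18.9% and 17.9% in HFD-338, and 6.22% and 6.74% in HFD-Res. Mat1a, the S-adenosylmethionine synthetase of liver, fell in HFD-337 (-1.10, edgeR adjusted p = 0.000238), and so did Gnmt, glycine N-methyltransferase (-0.97). The methylglycine dehydrogenases Dmgdh and Sardh fell in HFD-338 (-1.04 and -0.93) and had risen with the diet (0.60 and 0.84). Choline kinase Chka (-1.74) and the choline transporter Slc44a1 (-1.16) fell in HFD-Res. Of 9 tested genes of hypotaurine, taurine and cysteamine metabolism, 1 was higher and 6 lower in HFD-337 (median -0.68), 1 and 6 in HFD-338 (median -0.53), and 2 and 0 in HFD-Res (median 0.09). Csad, which makes hypotaurine, had a mean of 198 CPM in HFD-NS, 74.5 in HFD-337 (-1.40, edgeR adjusted p = 0.0034) and 59.6 in HFD-338 (-1.73, edgeR adjusted p = 0.00134). Vnn1, which releases cysteamine, fell in HFD-337 (-1.04) and HFD-338 (-1.62), and Pank3, a pantothenate kinase, rose in HFD-Res (0.79). Fmo1, which acts on hypotaurine, was lower in HFD-337 and HFD-338 and did not pass the test in HFD-Res. The hypotaurine, taurine and cysteamine list summed to 4102 to 4280 CPM in SD-NS and 4174 to 4330 in HFD-NS. Fmo1 in HFD-NS was at 150.4% of its SD-NS mean. A link between Fmo1 and this list was not tested.

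Of 17 liver transcription factors and nuclear receptors, 3 were higher and 6 lower in HFD-337 (median 0.06), 1 and 11 in HFD-338 (median -0.66), and 1 and 1 in HFD-Res (median 0.00). The shares of all genes were 24.4% higher and 22.8% lower in HFD-337, 18.9% and 17.9% in HFD-338, and 6.22% and 6.74% in HFD-Res. Ppara, the fatty acid receptor, fell in HFD-337 (-1.14). Foxa2 was higher in HFD-337 (0.60) and lower in HFD-338 (-0.90). The estrogen receptor gene Esr1 fell in HFD-338 (-0.99) and rose in HFD-Res (1.11).

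Within 200 kb of the Fmo cluster on chromosome 1, 7 other genes were listed and 3 were tested. Prrc2c fell with the diet (74.2 ± 2.58 to 52.1 ± 3.09 CPM, log2 difference -0.51, edgeR adjusted p = 0.000339) and rose in HFD-338 (0.28, edgeR adjusted p = 0.015), and it was at 0.01 in HFD-337 against HFD-NS, where Fmo2 was at -1.30. Vamp4 passed in none of the comparisons with HFD-NS. Near Fmo5, 4 other genes were tested. Pde4dip, the largest of these by reads, rose with the diet (0.32, edgeR adjusted p = 0.00561) and fell in HFD-337 and HFD-338 (-0.26 and -0.28), but in HFD-Res it differed by 0.08, where Fmo5 differed by -0.63. Of the 3 clustered members, Fmo1 fell and Fmo2 rose in HFD-338, while Fmo2 and Fmo4 had a Pearson r of 0.80 over the 15 libraries. The part of gene position in these results was not tested. Members span 18667 to 37050 bases, and of 8062 tested genes that span 10 to 100 kb, 1663 were higher and 1985 lower in HFD-337 than in HFD-NS, with a median of -0.03.

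For each member, the 5 genes with the highest Pearson r over the 15 libraries were listed, from 12104 candidates of at least 1 CPM on average. Libraries of 1 group share their treatment, so r describes mainly the pattern of the group means. Fmo1 was followed most closely by Acss3, a short-chain acyl-CoA synthetase (r = 0.93), Dhrs7 (0.92), Gstt3 (0.92), the adrenergic receptor gene Adra1b (0.91) and Rcan2 (0.91). Acss3 moved over a wider range than Fmo1, from 32.4 ± 5.97 CPM in HFD-338 to 181 ± 18.7 in HFD-Res. Fmo5 was followed by the choline transporter gene Slc44a1 (0.91), Ivns1abp (0.89), Ddah1 (0.87), Pmpcb (0.87) and Vps29 (0.87). Slc44a1 stood at 15.8 ± 1.52 CPM in HFD-NS, 17.3 ± 0.651 in HFD-338, 8.0 ± 1.31 in HFD-337 and 6.99 ± 1.72 in HFD-Res, high and low in the same groups as Fmo5. Fmo2 was followed by Arap2 (0.95), Snx14 (0.94), Zfp800 (0.94), Arfip1 (0.93) and Ppia, which encodes cyclophilin A (0.92). All 5 were lowest in HFD-337, but over a smaller range than Fmo2, such as Ppia at 89.2 ± 8.11 CPM there and 141 ± 5.26 in HFD-NS. Fmo4 was followed by Gtdc1 (0.89), Nxn (0.88), Map3k13 (0.88), the hepatocyte transcription factor gene Prox1 (0.86) and Copg1 (0.86).

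**Figure D5:**
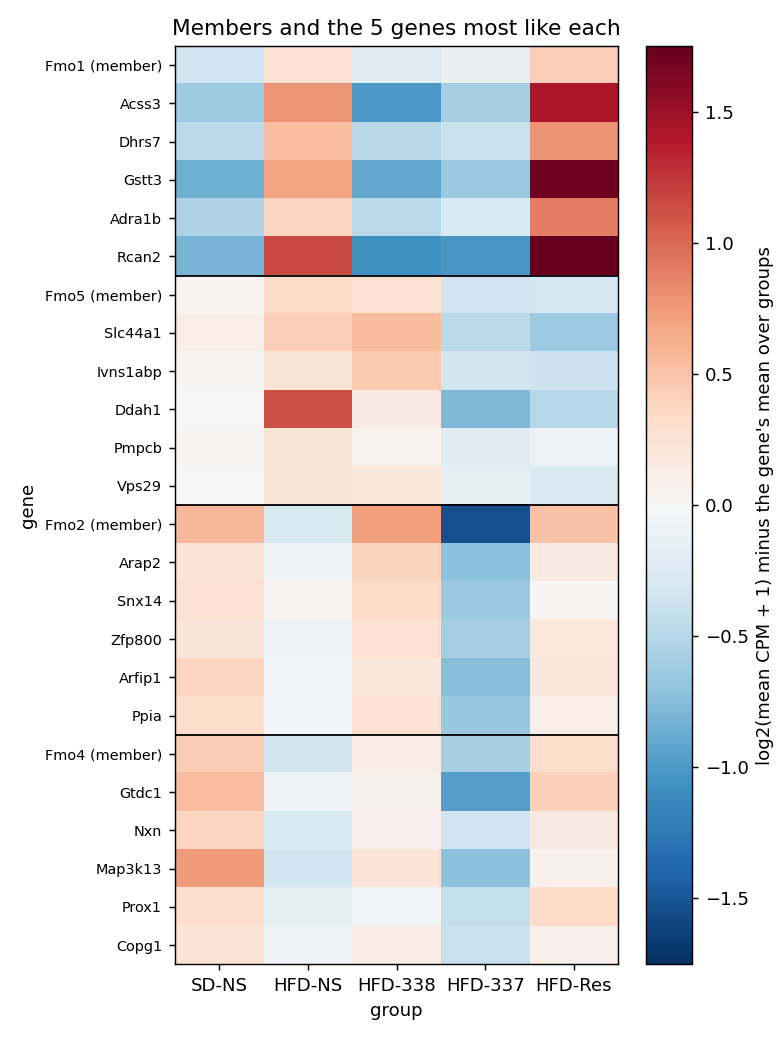
Colours give log2(mean CPM + 1) of each group minus the gene's mean over the groups, for each member (first row of a block) and the 5 genes most like it by Pearson r. Rows of the Fmo1 block are high in HFD-NS and HFD-Res, those of the Fmo5 block low in HFD-337 and HFD-Res, and those of the Fmo2 block lowest in HFD-337, where Fmo2 had 10.2 CPM.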

How the data were processed

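Per the labels' protocols, TRIzol and chloroform were used to extract liver RNA, from which polyadenylated RNA was selected. Per the submitters' processing notes, the tools were featureCounts 2.0.1, STAR 2.7.10b, Trim Galore 0.6.10 and Bowtie 1.3.1, and the build was mm39; the role of Bowtie is not given in the sources used here. The deposited counts are, per the file headers, unstranded exon reads per gene, and a read overlapping several genes was counted for each. Of the authors' deposited TPM columns, 12 equal TPM recomputed from counts and exon length within 0.001, and 3 could not be tied to a library and were not used.

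Counts were fitted with edgeR 4.0.16 in R 4.3.3 (TMM scaling, filterByExpr, robust quasi-likelihood test, 1 model of 5 groups). Benjamini-Hochberg adjustment ran over 13189 genes per comparison, and the threshold for a call was 0.05. Intervals are 1.96 SE to each side. The code was tested on simulated data. Alternatives were RLE size factors, no filter, DESeq2 1.42.0, limma 3.58.1 (voom with quality weights, and log2(TPM + 1) with a minimum of 1 TPM in 3 libraries), 2 groups alone and each library left out; their use on gene lists was added after seeing the data.

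The members and the 18 gene lists were chosen with earlier results of these data known. Named genes are the members, Stk25, the 5 genes most like each member, up to 2 called genes per list, direction and comparison, and genes within 200 kb. Ddx3y and Xist are named as markers of sex. Coding sequences came from GENCODE vM21 (GRCm38), whose coordinates were not used. Some genes and sequences are not reported here.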

Additional observations from a re-analysis of the deposited data

How the results depend on the processing

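Of 240 alternative values of the members without a library left out, 221 kept their direction and side of the threshold, as did 217 of 240 with 1 library left out. All values here are adjusted p. Lost calls were Fmo2 in HFD-NS against SD-NS without the count filter (0.0527), Fmo1 in HFD-338 against HFD-NS on the TPM scale (0.061), Fmo2 in HFD-Res against HFD-NS without the filter (0.104), with limma-voom (0.0502), on the TPM scale (0.0772) and in 2 groups alone (0.0918), and Fmo5 in HFD-Res against SD-NS with RLE (0.0615), without the filter (0.106) and on the TPM scale (0.148). Gained calls were Fmo5 in HFD-NS against SD-NS with limma-voom (0.0413), on the TPM scale (0.0295) and in 2 groups alone (0.026), Fmo4 with limma-voom in HFD-338 (0.0409) and HFD-Res (0.0382) against HFD-NS, and in HFD-338 against SD-NS Fmo1 on the TPM scale (0.036) and Fmo5 on the TPM scale (0.00591) and in 2 groups alone (0.0343). Differences that did not pass changed sign on the TPM scale for Fmo5 in HFD-338 against HFD-NS (0.673) and Fmo1 in HFD-337 against HFD-338 (0.183). With 1 library left out, lowest and highest values were 0.017 and 0.0668 for Fmo2 and 0.0109 and 0.0688 for Fmo4 in HFD-NS against SD-NS, 0.00455 and 0.161 for Fmo2 in HFD-Res against HFD-NS, 0.00498 and 0.0573 for Fmo4 in HFD-337 against HFD-338, 0.00859 and 0.077 for Fmo5 and 0.0264 and 0.628 for Fmo1 in HFD-337 against SD-NS, and 0.0259 and 0.219 for Fmo5 in HFD-Res against SD-NS. Signs of differences that did not pass turned for Fmo1 in HFD-337 against HFD-338 without HFD-337 replicate 26 (0.745; range 0.243 to 0.745), Fmo5 in HFD-337 against HFD-Res without HFD-337 replicate 27 (0.947) or HFD-Res replicate 34 (0.803; range 0.285 to 0.947), Fmo2 in HFD-338 against HFD-Res without HFD-Res replicate 34 (0.976; range 0.0973 to 0.976), Fmo2 in HFD-338 against SD-NS without HFD-338 replicate 19 (0.993; range 0.31 to 0.993) and Fmo2 in HFD-Res against SD-NS without SD-NS replicate 7 (0.971) or HFD-Res replicate 34 (0.647; range 0.332 to 0.971). The causes were not tested. On the TPM scale the median log2 difference of all genes moved from 0.00 to -0.23 in HFD-337 against HFD-338 and to 0.12 in HFD-338 against HFD-NS and against HFD-Res, from -0.04 to 0.18 in HFD-338 against SD-NS, and from 0.03 to -0.08 in HFD-337 against HFD-NS and to -0.07 in HFD-337 against HFD-Res, and the share of calls that were higher from 51.7% to 38.2% in HFD-337 against HFD-NS, 51.4% to 67.2% in HFD-338 against HFD-NS, 49.3% to 29.3% in HFD-337 against HFD-338, 51.0% to 39.2% in HFD-337 against HFD-Res, 51.5% to 66.8% in HFD-338 against HFD-Res, 47.1% to 73.4% in HFD-338 against SD-NS, 42.8% to 61.5% in HFD-Res against SD-NS and 42.8% to 64.4% in HFD-NS against SD-NS. No paired analysis was possible because the groups share no replicate numbers. Fmo4, with 10 to 74 counts a library, is limited by depth.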
